A study of Mus musculus with 2 samples.

Results

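The Bcl2 family decides whether a cell keeps or breaches the outer membrane of its mitochondria. The 10 family genes described here were taken by symbol from the 23418 rows of the deposited table, and all 10 were found there: Bcl2, Bcl2l1, Mcl1, Bcl2l10, Bax, Bak1, Bok, Bid, Bcl2l11 and Bnip1. RNA captured on oligo-dT beads had been sequenced from C57BL/6 mouse embryos at the 4 to 8-cell stage. One library came from 20 pooled embryos that had received siRNA against Dnmt1, the maintenance DNA methyltransferase (siDnmt1). The other came from 20 pooled embryos that had received scrambled siRNA (scrambled). Both groups were thus injected, both are pools of whole embryos, and the stage spans a cell division, so the mix of 4-cell and 8-cell embryos in each pool is not known. With 1 library a group, differences have no replicate check and no p-value was computed. In pooled embryos, fewer cells and less RNA per cell cannot be told apart.

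Family proteins share short stretches called BH domains. Anti-apoptotic members (the products of Bcl2, Bcl2l1, Mcl1 and Bcl2l10) hold the effectors Bax and Bak1 in check. BH3-only proteins such as Bid and Bim, the product of Bcl2l11, bind either side and release these effectors. Bax and Bak1 then form pores and let cytochrome c out to activate caspases. Bok, also pore-forming, is counted here with the effectors. Bnip1 differs in function: it carries a BH3-like stretch, but its product, Sec20, is a SNARE that fuses vesicles returning from the Golgi with the endoplasmic reticulum. In the mouse, Mcl1 is known to be needed around implantation.

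Dnmt1 methylates the cytosine of CpG pairs, and for that reason the start regions of the 3 family genes with the highest mean counts are shown with each CG pair in capitals. Each window runs from 250 bases before to 50 bases after a RefSeq transcription start on GRCm38.p6, on the strand of the gene. They are Bnip1 (chr17:26780829-26781128, plus strand), Mcl1 (chr3:95658471-95658770, plus strand) and, of the 3 windows of Bcl2l1, the one with the most CG pairs (chr2:152831679-152831978, minus strand).
Bnip1: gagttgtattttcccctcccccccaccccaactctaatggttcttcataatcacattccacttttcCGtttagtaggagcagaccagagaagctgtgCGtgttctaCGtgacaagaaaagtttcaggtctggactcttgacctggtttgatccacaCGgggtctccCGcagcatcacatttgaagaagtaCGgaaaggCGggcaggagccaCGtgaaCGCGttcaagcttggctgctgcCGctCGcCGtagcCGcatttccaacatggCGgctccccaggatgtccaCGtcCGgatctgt
Mcl1: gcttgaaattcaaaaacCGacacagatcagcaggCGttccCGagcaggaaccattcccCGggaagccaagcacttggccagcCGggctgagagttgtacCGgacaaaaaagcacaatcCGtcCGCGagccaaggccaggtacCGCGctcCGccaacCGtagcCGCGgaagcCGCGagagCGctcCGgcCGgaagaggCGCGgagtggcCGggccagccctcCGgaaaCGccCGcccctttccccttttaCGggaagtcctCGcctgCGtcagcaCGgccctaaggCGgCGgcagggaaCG
Bcl2l1: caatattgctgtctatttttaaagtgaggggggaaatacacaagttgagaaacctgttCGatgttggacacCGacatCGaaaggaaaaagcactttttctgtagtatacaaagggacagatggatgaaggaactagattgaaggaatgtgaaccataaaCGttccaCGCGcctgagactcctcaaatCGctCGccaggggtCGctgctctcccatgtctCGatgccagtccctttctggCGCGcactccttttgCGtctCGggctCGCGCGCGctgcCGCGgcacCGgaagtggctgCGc

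The Bnip1 window held 17 CG pairs, the Mcl1 window 33 and this Bcl2l1 window 22, against a median of 7 over all 32851 windows. CG reads the same on both strands, and 94.6% of all windows held at least 1. At least as many pairs as in the Bnip1 window were found in 31.4% of windows, as in the Mcl1 window in 8.56% and as in the Bcl2l1 window in 23.1%. The other Bcl2l1 windows held 14 and 1. Windows were found for 9 of the 10 genes, Bcl2l10 being the one without. The other genes ranged from 11 pairs (Bak1) to 44 (Bcl2), with 38 and 27 in the 2 windows of Bcl2l11, 22 in Bid, 19 in Bax and 16 in Bok. The methylation of these windows was not analysed here.

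The libraries held 12236615 (siDnmt1) and 11675483 (scrambled) counts. Rn45s, the ribosomal RNA precursor, took 37.3% and 29.9% of them. Dnmt1 itself had 687 counts in siDnmt1 and 847 in scrambled, 1.23-fold lower (95% interval 1.11 to 1.37), and 38.3% of the 7315 genes compared stood at or below it in log2 ratio. Of 14 early embryo markers fixed for the check, 11 had a count in both libraries, and Sox2 was at 0 in both. Several of them differed between the pools: Sp110 had 60968 counts in siDnmt1 and 32953 in scrambled, Tdgf1 344 and 163, Zfp352 112 and 802, Dppa3 70 and 194 and Tfap2c 282 and 577, while Tead4 had 2455 and 2202. The part of these marker differences in the results below was not tested. All 7 sperm markers were at 0, and 9 of 11 cumulus and granulosa cell markers were at 0 in both libraries, with sums of 8 counts in siDnmt1 and 0 in scrambled. Blood and leukocyte markers summed to 18 and 10 counts and fibroblast markers to 18 and 16, with 6 of 9 and 6 of 7 genes at 0. Oocyte markers summed to 425 and 447.

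Together the 10 genes had 805 counts in siDnmt1 and 1163 in scrambled. Most came from Mcl1, Bcl2l1 and Bnip1. Of the family genes compared, only Bnip1 was more than 2-fold apart, with 17 counts in siDnmt1 and 245 in scrambled. Bcl2l1 was lower in siDnmt1 by a smaller factor, while Mcl1, Bax and Bcl2l11 had ratios whose counting intervals included equality. The genes compared were those averaging 20 or more counts across the libraries, and for each the log2 ratio was log2((siDnmt1 + 5)/(scrambled + 5)), which understates the change of genes with few counts. Intervals are 95% Clopper-Pearson intervals of the ratio of counts, and they cover counting error alone.

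Of the 10 genes, 5 reached that mean (Mcl1, Bcl2l1, Bnip1, Bcl2l11 and Bax). Among them, 0 were higher in siDnmt1 by 2-fold or more, against 12.5% of all genes compared, and 1 was lower by 2-fold or more, against 16.7% of all genes compared. A count of 1 in 5 is near that background. Bnip1 reached the mean through its scrambled count, since its siDnmt1 count was below 20. The plot of counts by gene shows the 10 genes side by side.

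**Figure D1:**
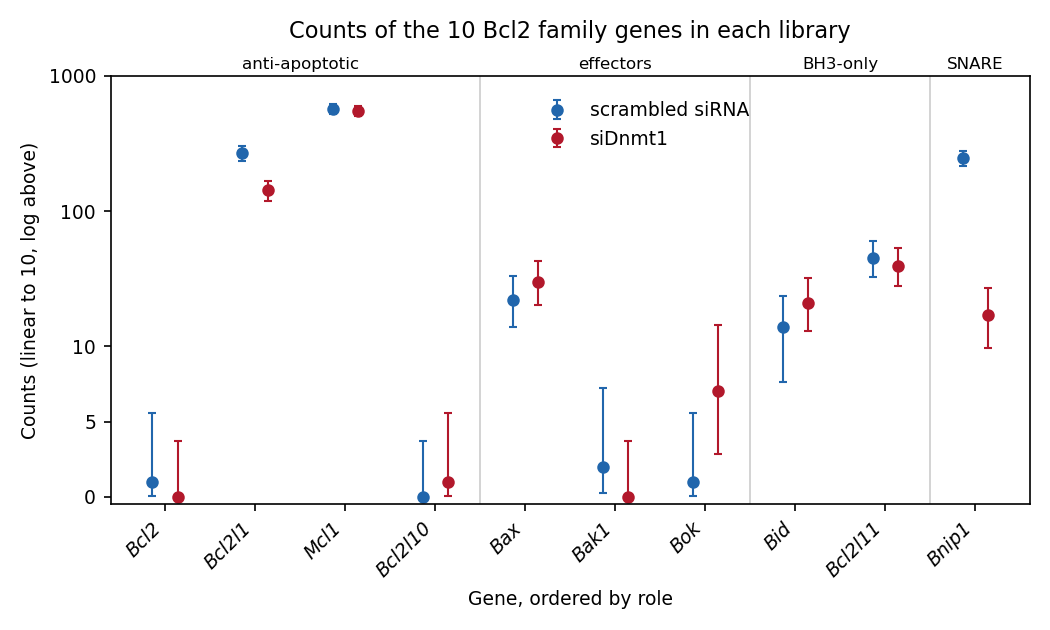
Counts of the 10 Bcl2 family genes (y axis, linear up to 10 and logarithmic above) in the scrambled (blue) and siDnmt1 (red) library, 1 library each, ordered by role. Bars are exact 95% Poisson intervals and cover counting error alone. Bnip1 stands at 245 and 17, Bcl2l1 at 267 and 142, and the Mcl1 points (566 and 548) have overlapping bars.

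Among the anti-apoptotic genes, Mcl1, whose short-lived protein binds Bak and Bim, was the most abundant. It had 548 counts in siDnmt1 and 566 in scrambled, a ratio of 0.968 (0.859 to 1.09). The libraries were thus within counting error of each other for this gene, and its log2 ratio of -0.05 lay close to the median of all genes compared (-0.02).

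Bcl2l1, which encodes Bcl-xL, had 142 counts in siDnmt1 and 267 in scrambled, 1.88-fold lower (1.53 to 2.32). The difference exceeded counting error, but 19.1% of the genes compared lay at or below its log2 ratio of -0.89. As CPM (counts scaled to the library total without Rn45s), its level was 18.5 in siDnmt1 and 32.6 in scrambled, 1.76-fold lower.

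Mcl1 and Bcl2l1 held nearly all counts of the 4 anti-apoptotic genes, and these counts were set against each other inside each library, which removes the scaling between libraries. Mcl1 made up 79.4% of their joint counts in siDnmt1 (548 of 690, exact binomial interval 76.2 to 82.4%) and 67.9% in scrambled (566 of 833, 64.7 to 71.1%). The intervals did not overlap. Per kb of the longest annotated transcript, the level of Mcl1 was 2.90 times that of Bcl2l1 in siDnmt1 and 1.59 times in scrambled.

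The other anti-apoptotic genes were at the limit of detection. Bcl2, the founding gene of the family, had 0 counts in siDnmt1 and 1 in scrambled. Bcl2l10, a relative known from ovary and oocytes, had 1 and 0. Both were at or under the floor of 3 counts set here for a count of 0 (the exact Poisson interval of the plotted bars reaches 3.69). Those 3 counts correspond to 0.391 (siDnmt1) and 0.366 (scrambled) CPM, so no fold is given. These counts are too low to tell whether either transcript was present at all.

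Of the pore-forming effectors, Bax had 30 counts in siDnmt1 and 22 in scrambled, a ratio of 1.36 with an interval from 0.761 to 2.48. That interval includes equality, so a difference was not detectable at this depth. GENCODE lists a protein-coding gene, Gm45808, that overlaps Bax on the same strand and has no row in the deposited counts, so its level is not known. Bok, an effector that acts partly at the endoplasmic reticulum, had 7 counts and 1, and the counting interval of this ratio ran from 0.899 to 315. Bak1, which resides on mitochondria, had 0 and 2 and gets no fold. Ggnbp1 overlaps Bak1 on the opposite strand and had 22 counts in siDnmt1 and 0 in scrambled. Whether the counting used strand is not given in the sources used here, so reads in such overlaps cannot be assigned with certainty.

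The BH3-only genes had few counts and were within counting error of equality. Bcl2l11 (Bim), which binds all anti-apoptotic members, had 39 counts in siDnmt1 and 45 in scrambled, a ratio of 0.867 (0.550 to 1.36). Bid, which caspase 8 cleaves to link death receptors to mitochondria, had 21 and 14, a ratio of 1.5 (0.727 to 3.19), and its mean of 17.5 fell short of the minimum. Bid overlaps its relative Bcl2l13 on the opposite strand, which had 848 and 838 counts, and without strand, reads in the overlap cannot be assigned to either gene.

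Bnip1 was the family gene with the largest difference. Its 17 counts in siDnmt1 against 245 in scrambled made it 14.4-fold lower (8.82 to 25.1), and 13.5-fold lower in CPM. Its log2 ratio of -3.51 was at or above that of 44 of the 7315 genes compared (0.602%, itself included). Among the 1204 genes with a mean from 100 to under 200 counts, 5 were at or below it (0.415%), while 16.4% of that band were at least 2-fold lower. In scrambled, Bnip1 ranked 2709 in counts among all rows, close to Bcl2l1 at 2571. In siDnmt1 it ranked 7250, against 3500 for Bcl2l1. GENCODE lists no gene that overlaps Bnip1.

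**Figure D2:**
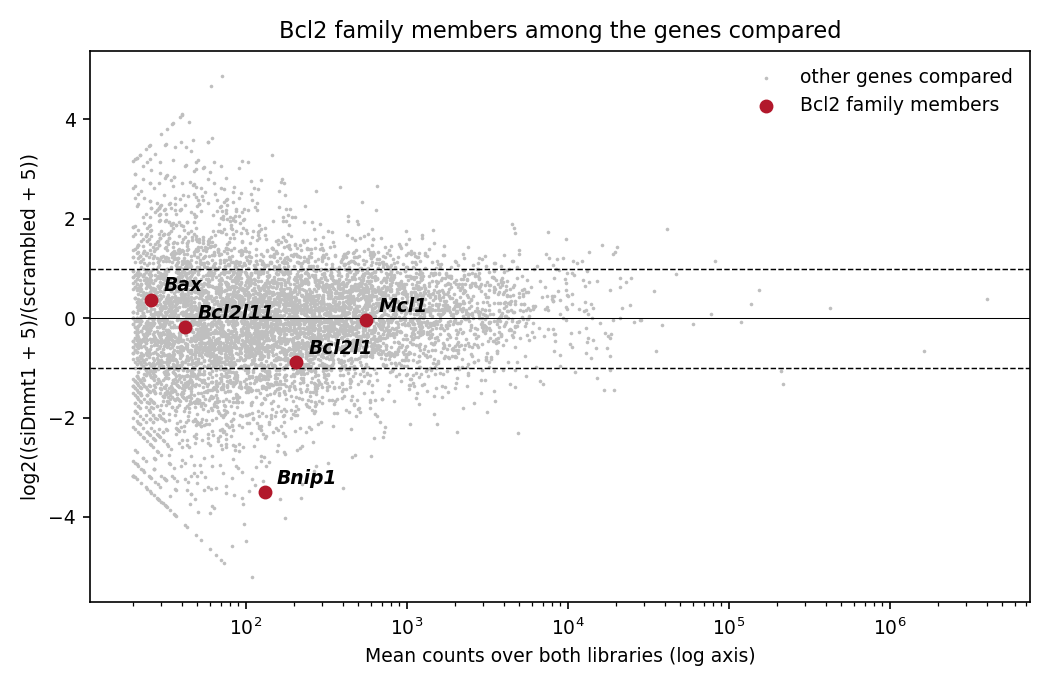
Log2 ratio of counts (y axis) against mean counts over both libraries (x axis, log) for the 7315 genes compared (grey) and the 5 Bcl2 family genes among them (red). Dashed lines mark 2-fold. Bnip1 lies at -3.51, and Bax, Bcl2l11, Mcl1 and Bcl2l1 lie inside the dashed lines.

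Log2 ratios depended on transcript length between these libraries, and this touched Bax in particular. Genes whose longest GENCODE transcript was under 1.5 kb numbered 477, their median log2 ratio was -1.04, and 51.4% of them were lower by 2-fold or more. For the 2057 genes of 5 kb and over the median was 0.17. Bax, whose longest transcript is 1100 nt, had a log2 ratio of 0.37, which became 1.34 once the lowess trend with length was removed, past the 2-fold mark. With the median transcript length of each gene in place of the longest, its value was 0.50, inside the mark. Bnip1 (3443 nt) was at -3.49 after removal of the trend with the longest transcript and at -3.32 with the median one, and Bcl2l1 (2568 nt) was at -0.77 and -0.79.

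**Figure D3:**
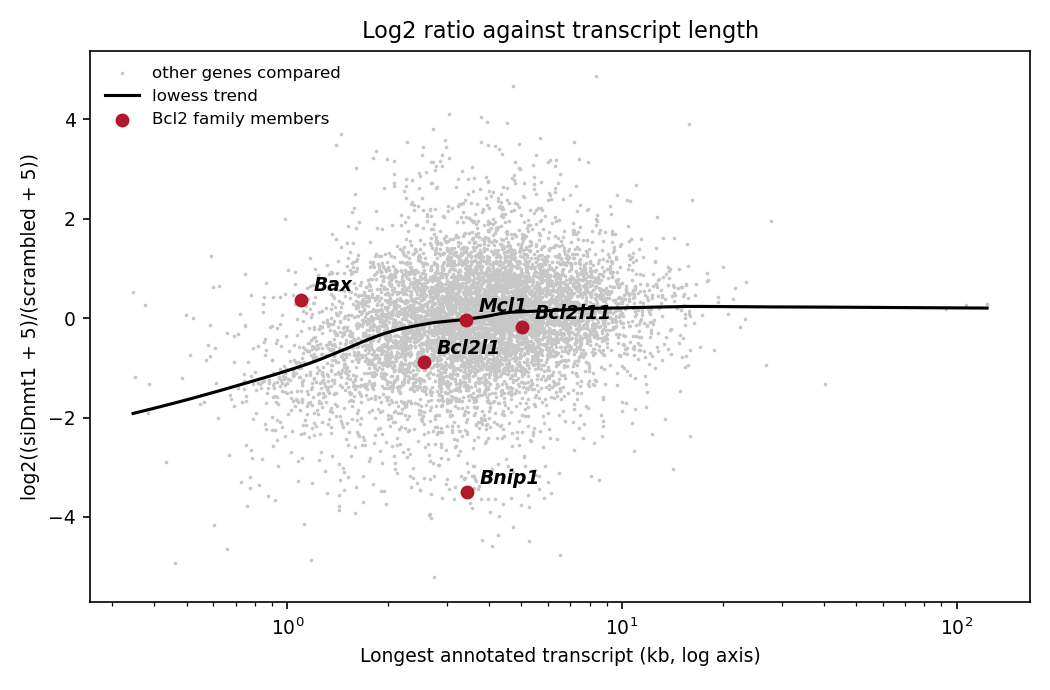
Log2 ratio of counts (y axis) against the longest annotated transcript in kb (x axis, log) for the genes compared (grey), with the lowess trend (black line) and the 5 Bcl2 family genes (red). Bax, at 0.37, lies above the trend for its length, and Bnip1, at -3.51, lies far below the trend.

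Levels of different genes were compared per kb of the longest transcript. In scrambled, the order among the 10 was Mcl1 (166 counts per kb), Bcl2l1 (104), Bnip1 (71.2), Bax (20.0), Bcl2l11 (8.94) and Bid (5.80), with Bak1, Bok, Bcl2 and Bcl2l10 below 1 count per kb. In siDnmt1 it was Mcl1 (160), Bcl2l1 (55.3), Bax (27.3), Bid (8.70), Bcl2l11 (7.74), Bnip1 (4.94) and Bok (4.77). Bnip1 was thus in the third place in scrambled and the sixth in siDnmt1. With median transcript lengths it was in the second place in scrambled, ahead of Bcl2l1, and again the sixth in siDnmt1. Bid and Bcl2l11 are neighbours in both orders. Per kb, Bid was higher in siDnmt1 with either length, while in scrambled the higher one depended on the length used. The ratio of Bcl2l11 to Bid was 0.891 in siDnmt1 and 1.54 in scrambled per kb of the longest transcript, and 0.535 and 0.925 with median transcript lengths. In raw counts Bcl2l11 was the higher one in both libraries (39 against 21 and 45 against 14). Among the genes compared, the per-kb level of Mcl1 lay at percentile 80.4 in siDnmt1 and 80.5 in scrambled, and that of Bnip1 at 6.99 and 64.1.

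As a share of the summed per-kb level of the 10 genes, Mcl1 took 59.4% in siDnmt1 and 43.9% in scrambled. Bnip1 took 1.83% and 18.9%, Bcl2l1 20.5% and 27.6%, and Bax 10.1% and 5.30%. With median transcript lengths, the Mcl1 share was 52.8% and 34.7%, the Bnip1 share 3.22% and 29.5% and the Bcl2l1 share 20.9% and 24.9%, so the shares depend on the length used. With either length, the Mcl1 share was higher and the Bnip1 and Bcl2l1 shares were lower in siDnmt1.

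The balance of protective and pore-forming genes was also read inside each library. The 4 anti-apoptotic genes summed to 691 counts in siDnmt1 and 834 in scrambled, and the 3 effectors to 37 and 25. The ratio of the summed counts was 18.7 in siDnmt1 (13.4 to 26.8) and 33.4 in scrambled (22.4 to 51.9), and these counting intervals overlap. Such overlap does not show that the ratios are equal within counting error, and they were not tested against each other. Per kb, the ratio was 6.76 and 12.5. It rests on few effector counts: most of them are from Bax (30 and 22), and the anti-apoptotic side is nearly all Mcl1 and Bcl2l1. Bcl2l2, an anti-apoptotic gene outside the 10, is not in these sums, although it had 137 counts in siDnmt1 and 105 in scrambled. Without Mcl1 the per-kb ratio was 1.75 in siDnmt1 and 4.84 in scrambled. Neither reading inside a library nor dividing by kb removes the trend of log2 ratios with length. Bax (1100 nt) and Bok (1468 nt) are short, and the part of that trend in this balance was not tested.

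The wider family adds 19 genes, and several of them were more abundant than any of the 10. The highest per-kb level was that of Bcl2l14 (Bcl-G), with 883 counts in siDnmt1 and 1789 in scrambled, 2.03-fold lower (1.87 to 2.20). Bnip3l (Nix), a receptor that hands mitochondria to autophagy, had 556 and 1503, 2.70-fold lower (2.45 to 2.98). Per kb, Bcl2l14 stood at 394 and 798 counts and Bnip3l at 171 and 461, against 160 and 166 for Mcl1. Bcl2l13, another mitophagy receptor, had 848 and 838 counts, a ratio of 1.01 (0.919 to 1.12), and Bcl2l2 (Bcl-w), an anti-apoptotic gene, had 137 and 105, a ratio of 1.30 (1.004 to 1.70).

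Of these 19 genes, 8 were compared, with 2 lower and 0 higher by 2-fold or more (16.7% and 12.5% of all genes compared). Their median log2 ratio was -0.51 against -0.02 for all genes compared. After removal of the trend with length the median was -0.31. Bcl2l14, 1 of the 2 lower genes, was close to the mark at -1.01. It was inside the mark at -0.82 after removal of that trend, and 1.90-fold lower in CPM. The BH3-only genes Bik and Hrk were at 0 in both libraries, and Bbc3 (Puma) had 3 counts and 0. Pmaip1 (Noxa) had 7 and 6. The Bcl2a1 copies are near-identical, so their counts of 0 to 2 are uncertain. These 4 BH3-only genes, Bbc3 and Pmaip1 being known p53 targets, fell short of the mean and were named after their values were seen.

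**Figure D4:**
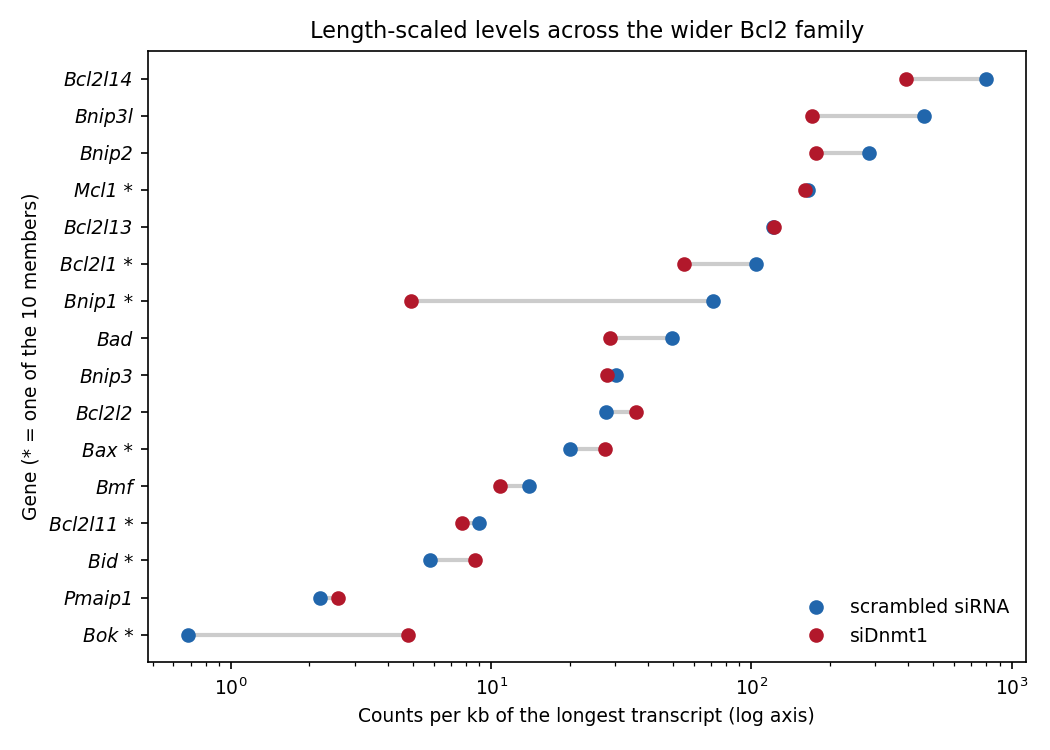
Counts per kb of the longest transcript (x axis, log) in the scrambled (blue) and siDnmt1 (red) library for the 16 genes of the wider Bcl2 family with more than 3 counts in a library. Bcl2l14 is at the top with 798 and 394, and the widest grey bars are those of Bnip1 (71.2 and 4.94) and Bok, which rests on 1 and 7 counts.

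Bnip1 works in a SNARE complex, and genes of its partners in that complex were also read. Of 10 listed genes, 5 were compared, with 1 higher and 0 lower by 2-fold or more in siDnmt1 (12.5% and 16.7% of all genes compared). Their median log2 ratio was 0.60. Napa, which encodes the SNARE recycling factor alpha-SNAP, had 925 counts in siDnmt1 and 426 in scrambled, 2.17-fold higher (1.93 to 2.44). Nsf, the ATPase it recruits, had 176 and 323, 1.84-fold lower (1.52 to 2.22). The tethering genes Zw10 (158 and 99 counts) and Rint1 (50 and 49) had ratios of 1.60 and 1.02. The SNAREs that pair with Sec20 had few counts and fell short of the mean: Stx18 had 10 and 5, Sec22b 10 and 13, and Use1 5 and 15. Use1 was 3.0-fold lower (1.04 to 10.6), while the intervals of Stx18 and Sec22b included equality. Those 3 SNARE genes were named after their values were seen.

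The neighbours of Bnip1 on chromosome 17 were also read, a choice made after its value was seen. In the order of GENCODE's protein-coding genes among those compared, Ergic1 and Crebrf come before it and Kifc5b and Zbtb9 after it. Ergic1 had 55 counts in siDnmt1 and 146 in scrambled (log2 ratio -1.33), and Crebrf 430 and 660 (-0.61). Kifc5b had 64 and 61 (0.06) and Zbtb9 86 and 29 (1.42). The 4 log2 ratios differed in sign. All 4 were above the -3.51 of Bnip1, but this holds for nearly any gene, since only 0.602% of the genes compared were at or below it.

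Downstream of the effectors, cytochrome c and Apaf1 activate caspase 9, which cleaves the executioner caspases. In this list of 13 genes, 6 were compared, with 1 lower and 0 higher by 2-fold or more (16.7% and 12.5% of all genes compared). Their median log2 ratio was -0.04. Casp6, an executioner caspase, had 156 counts in siDnmt1 and 752 in scrambled, 4.82-fold lower (4.05 to 5.77). Apaf1 had 142 and 155, a ratio of 0.916 (0.724 to 1.16). Casp2 had 31 and 20. For Casp2 and Apaf1 the interval included equality, and 4 genes of the list were at 0 in both libraries.

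Inhibitor of apoptosis proteins block caspases, and Diablo and Htra2 leave mitochondria to bind them. Of 7 genes compared, 2 were higher and 1 lower by that margin (12.5% and 16.7% of all genes compared). Both higher genes encode inhibitors: Birc2 had 93 counts in siDnmt1 and 35 in scrambled, 2.66-fold higher (1.78 to 4.04), and Xiap 146 and 64, 2.28-fold higher (1.69 to 3.11). After removal of the trend with length, the log2 ratio of Xiap was 0.96, inside the 2-fold mark, and that of Birc2 was 1.32. The antagonists were the lowest of the list, with Diablo at 26 and 108, 4.15-fold lower (2.69 to 6.64), and Htra2 at 44 and 85, 1.93-fold lower (1.33 to 2.85). The other inhibitor genes compared were within 2-fold: Birc3 (329 counts in siDnmt1 and 327 in scrambled), Birc5 (94 and 76) and Birc6 (2103 and 1591). They were named after their values were seen. The list's median log2 ratio was 0.29.

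In the death receptor pathway, which reaches the family through Bid, 8 of 15 genes were compared. By the same margin 2 were higher and 1 lower (12.5% and 16.7% of all genes compared), with a median of 0.26. Faf1, a Fas-associated factor, had 415 counts and 105, 3.95-fold higher (3.18 to 4.94), and the kinase gene Ripk1 89 and 34, 2.62-fold higher (1.75 to 4.01). The adaptor gene Tradd had 13 and 94, 7.23-fold lower (4.03 to 14.1), and reached the mean through its scrambled count. Cflar, an inhibitor of caspase 8, had 15 and 29, 1.93-fold lower (1.003 to 3.88). Casp8 itself was at 0 in both libraries and was named after its value was seen.

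Genes that control the level or activity of Mcl1, Bim and Bax gave 2 higher and 2 lower of 13 compared. The shares of all genes compared were 12.5% and 16.7%. The list's median was 0.17. Foxo3, a factor known to induce Bcl2l11, had 5662 counts in siDnmt1 and 2332 in scrambled, 2.43-fold higher (2.31 to 2.55). The cullin gene Cul5 had 4075 and 1790, 2.28-fold higher (2.15 to 2.41). E2f1, a cell cycle factor, had 258 and 1202, 4.66-fold lower (4.07 to 5.35), and the kinase gene Gsk3a 34 and 128, 3.76-fold lower (2.56 to 5.67). Bcl2l11 itself, at 39 and 45 counts, was within counting error of equality.

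On the mitochondrial side, 15 genes of the outer membrane and of fission and fusion were compared, with 5 lower and 1 higher by 2-fold or more (16.7% and 12.5% of all genes compared) and a median of -0.66 (-0.41 after removal of the trend with length). Oma1, a protease that cuts the fusion protein Opa1, had 5 counts in siDnmt1 and 45 in scrambled, 9.0-fold lower (3.58 to 29.1). Mtch1, a carrier-like outer membrane protein gene, had 66 and 338, 5.12-fold lower (3.92 to 6.77). Tomm22, of the import pore, had 113 and 49, 2.31-fold higher (1.64 to 3.29), and the fusion gene Mfn1 980 and 527, 1.86-fold higher (1.67 to 2.07). Oma1 and Fis1 (11 and 36 counts), both among the lower genes, reached the mean through their scrambled counts. After removal of the trend with length, Fis1 was at -0.25, inside the 2-fold mark. Vdac1 (288 and 155 counts) was then at 1.15, past it. Fis1 and Vdac1 were named after their values were seen.

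At the endoplasmic reticulum, family proteins bind inositol trisphosphate receptors and Beclin 1. Of 10 genes compared, 1 was lower and 0 were higher by 2-fold or more (16.7% and 12.5% of all genes compared). Their median was 0.19. Tmbim6 (Bax inhibitor 1) had 182 counts and 475, 2.61-fold lower (2.20 to 3.11), and the receptor gene Itpr2 47 and 84, 1.79-fold lower (1.24 to 2.61). Its relative Itpr1 had 165 and 100, 1.65-fold higher (1.28 to 2.14), and Pik3c3, the lipid kinase of the Beclin complex, 830 and 481, 1.73-fold higher (1.54 to 1.93).

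Of the execution and DNA fragmentation genes, 8 were compared. By 2-fold or more, 1 was higher and 0 lower (12.5% and 16.7% of all genes compared), with a median of 0.18. Parp1, a caspase substrate and DNA repair enzyme, had 1462 counts and 516, 2.83-fold higher (2.56 to 3.14), and Rock1, a kinase behind membrane blebbing, 232 and 143, 1.62-fold higher (1.31 to 2.01). The nuclease gene Endog had 21 and 43, 2.05-fold lower (1.19 to 3.63) as a plain ratio but within 2-fold with the added 5 counts, and its log2 ratio of -0.88 was 0.11 after removal of the trend with length. Xkr8, a scramblase of dying cells, had 28 and 50, 1.79-fold lower (1.10 to 2.95).

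Over all 9 lists, with each gene counted once, 80 genes were compared. By 2-fold or more, 9 (11.25%) were higher and 13 (16.25%) lower, near the 12.5% and 16.7% of all genes compared. Their median log2 ratio was 0.01. Over all genes compared, the middle 50% of log2 ratios ran from -0.67 to 0.57. The plot of the lists shows each gene.

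**Figure D5:**
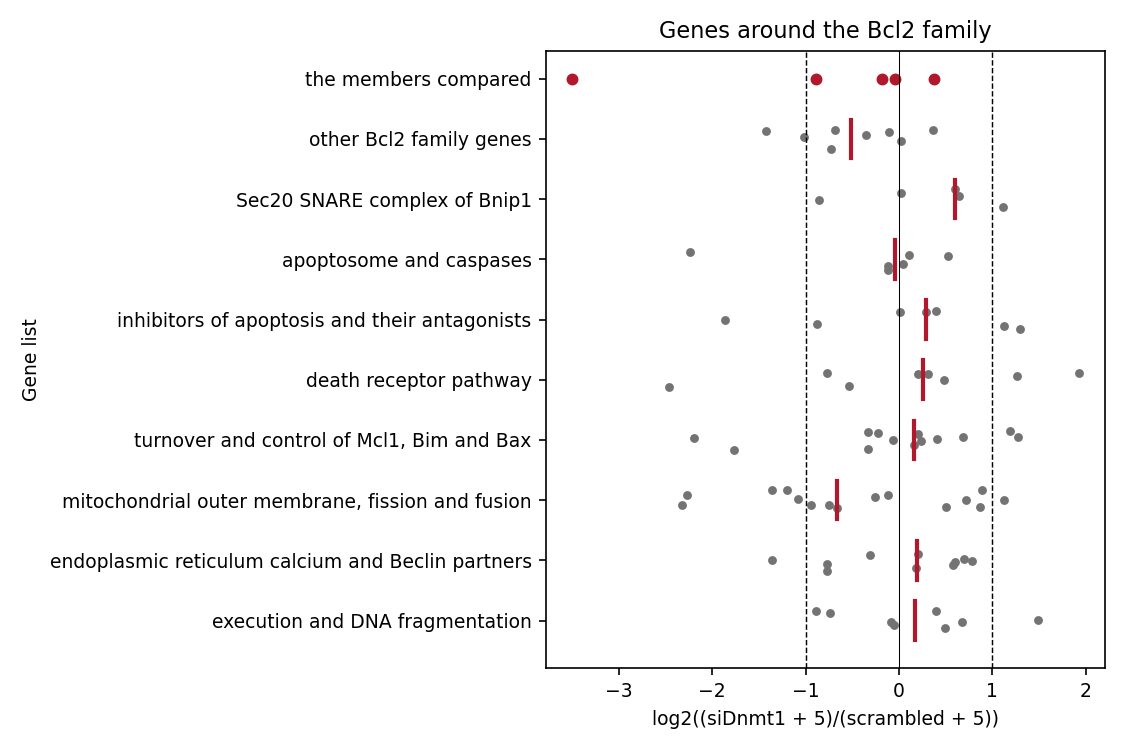
Log2 ratio of counts (x axis) for each compared gene of the 9 lists around the Bcl2 family (grey points, spread vertically for legibility) and for the 5 family genes compared (red points). Red bars are list medians and dashed lines mark 2-fold. The list medians run from -0.66 to 0.60, and Bnip1, at -3.51, lies further from 0 than any listed gene.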

How the data were processed

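The deposited table gives counts per gene for 1 siDnmt1 and 1 scrambled library, each from a pool of 20 embryos. Per the labels' protocols, mRNA captured on oligo-dT beads became adapter-tagged cDNA, amplified by 20 cycles of PCR with no molecular identifiers described, so intervals cover counting error only. The submitters' processing notes name mm9 as the build and the tools Trim Galore, HISAT2, HTSeq and DESeq2. Annotation, strand setting and the handling of multiply matching reads: not given in the sources used here. By its name the table is DESeq2-normalised. Its deposited counts are whole numbers, 0 values from 1 to 59 were skipped, and DESeq2 size factors recomputed from it were 1 for both libraries, which a normalised table would also give. They were treated as unscaled counts, a limit on every ratio.

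With 1 library per group the quasi-likelihood test of edgeR has no residual degrees of freedom and was not run, so ratios are descriptive. Genes averaging 20 or more counts were compared with a pseudocount of 5 and a 2-fold mark. Transcript lengths came from GENCODE M21 on GRCm38 by symbol or an unambiguous synonym, for 99.4% of genes compared, and start windows from RefSeq on GRCm38.p6. Neither is the mm9 build, so no coordinate was joined to the counts. The trend with length was a lowess curve (span 0.3). Genes named are Dnmt1, the 10 family genes and the 2 highest and 2 lowest compared genes of each list (all of them where fewer than 5 were compared). A gene that this rule takes is not reported here. Others are marked as named after their values were seen. The family genes and the 9 lists were chosen with earlier results of these data known. Alternatives were pseudocounts of 1 and 20, other filters, folds of 1.5 and 4, 4 scalings and trends on length and mean count. Scaling factors came from edgeR 4.0.16 and DESeq2 1.42.0 (R 4.3.3), intervals from scipy 1.17.1 and trends from statsmodels 0.14.6 (Python 3.11.15).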

Additional observations from a re-analysis of the deposited data

How the results depend on the processing

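No paired analysis was possible because each group has 1 library, and for the same reason no library could be left out. Bnip1 was the 1 family gene at least 2-fold lower under all alternatives but the 1.5-fold mark, which gave 2 with Bcl2l1, and its log2 ratio ran from -3.77 (pseudocount 1) to -2.84 (pseudocount 20). At least 2-fold higher were 0 family genes, except 1 (Bok, at 7 counts against 1) with no filter on low counts and 1 (Bax) after removal of the trend with the longest transcript. The log2 ratio of Bcl2l1 ran from -0.95 to -0.77. That of Mcl1 ran from -0.12 to 0.05, so its sign depends on the scaling. Over all genes, 1682 were higher and 2122 lower with no filter, 395 and 482 at a mean of at least 100 counts, 193 and 330 at 4-fold, and 1808 and 2046 at 1.5-fold. The 4 scalings moved the log2 ratios by -0.07 to 0.09 at most. The ratio of anti-apoptotic to effector genes was 18.7 (siDnmt1) and 33.4 (scrambled) from raw counts and 1.75 and 4.84 without Mcl1, always lower in siDnmt1. It and the ratios of Bid, Bok and Bax are limited by depth. Length trends on the median transcript and shares by median length were chosen after seeing the data.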
